A study of Mus musculus with 22 samples.

Results

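Hippocampus and cortex of the same mice were compared gene by gene, over the 7 hippocampus and 8 cortex libraries among the 22 libraries of the study. The hippocampus came from 3 wild-type (WT) and 4 circTulp4-deficient (CD) mice, and the cortex from 4 WT and 4 CD mice, so that 7 of the 8 mice gave both regions and 1 WT mouse, m164, gave cortex alone. The labels name no treatment. CD mice carry a mutated splice acceptor that lowers circTulp4, a circular RNA made from the Tulp4 gene, together with a mutation at the guide's PAM site. They descend from a single mosaic male founder made in a C57BL/6 background. Both genotypes entered each value given here, with genotype as a term of the model. The labels give no age and no sex for these libraries. Both regions were dissected as whole pieces of tissue, and neither the cortical area nor the part of the hippocampus is stated.

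The hippocampus is a simple form of cortex in which granule cells of the dentate gyrus send mossy fibers to CA3 pyramidal neurons, which in turn drive CA1 through the Schaffer collaterals. The neocortex stacks its projection neurons in layers: upper layers connect cortical areas with each other, layer 5 projects to the brainstem and spinal cord, and layer 6 projects to the thalamus. Both regions share their main transmitters, so differences between them tend to be sought in subfield and layer genes, receptor subunits, adhesion and guidance molecules, and in the cells that line ventricles and wrap axons.

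Counts summed over all transcripts were 17027335 to 36070045 in the hippocampus libraries and 11177121 to 35293149 in the cortex libraries. The counts used here, of 1 transcript per gene, were 4021610 to 8847478 for the hippocampus and 2757684 to 8638788 for the cortex. Levels are given as counts relative to this latter total (cpm) and scaled by TMM, which adjusts for differences in library composition. A level of 5 cpm, the minimum for testing, stood for 13.8 to 44.2 counts. Between libraries of one region the median coefficient of variation was 11.8% in the hippocampus and 13.1% in the cortex, over 5423 genes at 20 cpm or more. Xist ranged from 182 to 383 cpm in all 15 libraries and the Y-linked genes Ddx3y and Uty from 0 to 0.143 cpm; these 3 genes were looked up after the values were seen. Oligodendrocyte and choroid plexus genes moved with the region, at summed levels of 5024 to 7779 and 152 to 8192 cpm in the hippocampus against 2239 to 4077 and 40.7 to 117 cpm in the cortex, and their part in the differences of other genes was not tested.

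Of 10487 genes tested, 423 (4.03%) were higher in the hippocampus and 448 (4.27%) were higher in the cortex, at an FDR below 0.01 and a fold change above 2; genes past both thresholds are termed called here. Together the 871 called genes were 8.31% of those tested. A further criterion, that all 7 hippocampus libraries lay on one side of all 8 cortex libraries, was met by 14.6% of the genes tested and by 345 of the genes called higher in the hippocampus and 371 of those called higher in the cortex. In the 7 mice with both regions, 403 of the genes called higher in the hippocampus were higher there in 7 of 7 mice, and 425 of the genes called higher in the cortex were higher there in 7 of 7. Differences above 8-fold were found for 54 genes toward the hippocampus and 41 toward the cortex, whereas the median absolute log2 fold change over all tested genes was 0.23. At an FDR below 0.01 and any fold, 25.8% of genes differed, 1301 toward the hippocampus and 1403 toward the cortex. In a bulk sample, fewer cells of a type and less RNA per cell cannot be told apart, and this holds for every gene below. Long noncoding RNAs were called in 41 of 279 cases (14.7%) and protein-coding genes in 8.14% of 10154 cases.

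**Figure D1:**
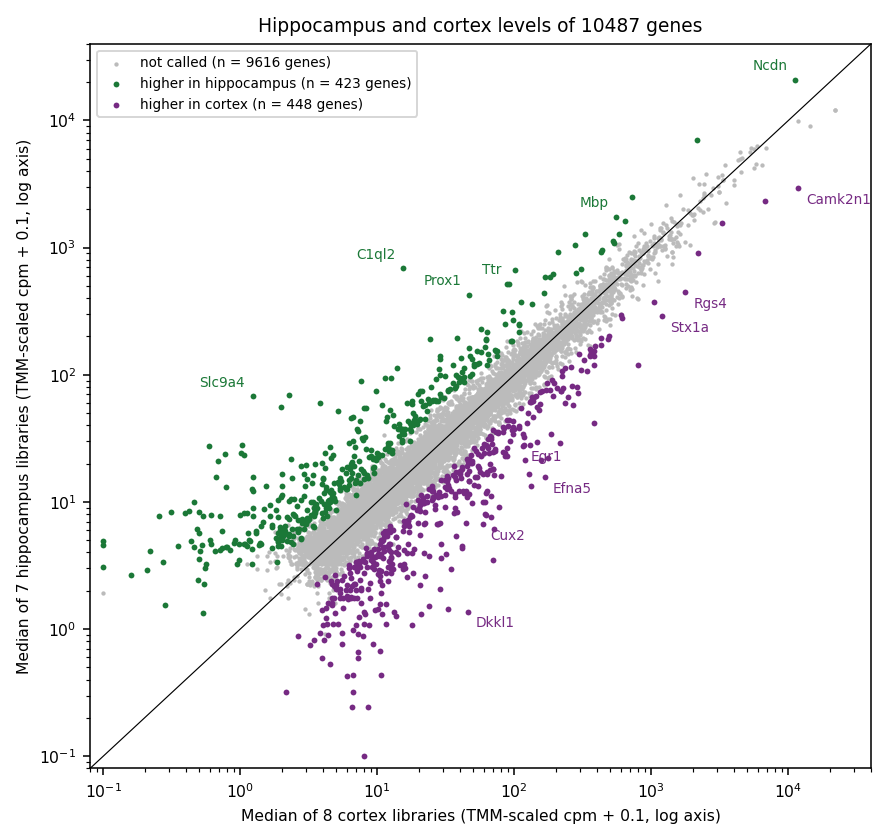
Median level of each of 10487 tested genes in 8 cortex libraries (x axis) and 7 hippocampus libraries (y axis), both in TMM-scaled cpm plus 0.1 on log axes; each point is a gene and the line marks equal levels. The 423 genes called higher in the hippocampus and the 448 called higher in the cortex are spread over the whole range of levels, from genes below 1 cpm in one region to Ncdn and Camk2n1 at the top.

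Leading genes were taken from called genes with a median of at least 20 cpm in the higher region and no overlap between regions, so their separation is part of the choice and not a result. Slc9a4 had the largest fold change among those of the hippocampus. It encodes a sodium-proton exchanger and lies at chr1:40579986-40630731 (GRCm38). Its lowest, median and highest levels were 66.1, 67.5 and 78.7 cpm in the hippocampus against 0.383, 1.13 and 2.92 cpm in the cortex, a log2 fold change of 5.80 ± 0.18 (SE; edgeR FDR 2.82e-15). All 7 hippocampi were high and within a narrow range, and no cortex library came near them. C1ql2, at chr1:120340582-120343174, encodes a secreted C1q-like protein of mossy fiber synapses. It reached 614, 686 and 909.9 cpm in the hippocampus and 7.698, 15.3 and 48.1 cpm in the cortex, with a log2 fold change of 5.05 ± 0.29 (edgeR FDR 2.58e-11). The cortices of CD mouse m118 and WT mouse m162 were the highest, at 48.1 and 40.2 cpm, and the others were at 7.698 to 18.5 cpm. Npy2r, a receptor for neuropeptide Y at chr3:82538383-82548989, was at 54.1, 69.7 and 78.1 cpm and 1.29, 2.17 and 3.33 cpm (log2 fold change 4.87 ± 0.14; edgeR FDR 1.58e-15). Prox1, the transcription factor that specifies dentate granule cells, stood at 309.7, 422 and 531 cpm against 29.8, 46.5 and 67.2 cpm (log2 fold change 3.27 ± 0.14; edgeR FDR 4.01e-13).

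The others of the 15 leading hippocampal genes differed in how tightly their libraries agreed and in the width of the gap, which was narrow for Ttr, at a lowest hippocampus of 115 cpm and a highest cortex of 106 cpm. Dsp, encoding the desmosomal protein desmoplakin at chr13:38151294-38198577, was at 32.7, 55.7 and 106 cpm in the hippocampus and 0.7398, 1.87 and 2.72 cpm in the cortex. Pkp2, encoding the plakophilin that binds it, was at 44.4, 51.4 and 53.4 cpm and 2.16, 5.097 and 8.36 cpm; the hippocampal values of Pkp2 were among the tightest of these genes, while those of Dsp spread widely. The remaining leading genes included Lct (lactase, log2 fold change 4.95), Spink8 (4.97), Lefty1, a Nodal antagonist (4.50), Drd5, the D5 dopamine receptor (3.89), Fibcd1 (3.45), Shisa6, which keeps AMPA receptors at the synapse (3.96), the envelope-derived gene Syna (5.11) and the noncoding RNA 2310002F09Rik (4.62). Scaled over all 22 libraries, Shisa6 had a median of 48.96 cpm in the cerebellum, 61.9 cpm in the hippocampus and 3.895 cpm in the cortex, so the cortex was the low region for this gene.

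Dkkl1 had the largest fold change toward the cortex among genes with a median of at least 20 cpm there. This gene, at chr7:45207525-45212165 and related to the Dickkopf family of secreted Wnt modulators, was at 0.484, 1.26 and 2.14 cpm in the hippocampus and 24.5, 45.7 and 48.3 cpm in the cortex, a log2 fold change of -4.90 ± 0.21 (edgeR FDR 4.01e-13). The highest cortex was 1.97 times the lowest, and every hippocampus was far below both. Lamp5, a lysosome-associated membrane protein of upper-layer neurons and neurogliaform cells at chr2:136052025-136069917, was more even, with 34.8, 41.3 and 47.6 cpm in the hippocampus and 302, 379 and 403 cpm in the cortex (log2 fold change -3.17 ± 0.08; edgeR FDR 6.19e-16). Efna5, an ephrin at chr17:62602957-62881317 that guides axons through Eph receptors, was at 7.92, 15.5 and 24.8 cpm and 132, 168 and 201 cpm (log2 fold change -3.37 ± 0.16; edgeR FDR 1.44e-12). The gap between the highest hippocampus and the lowest cortex was 5.33-fold for Efna5. Cux2, a homeodomain factor of upper-layer neurons, was at 5.56, 6.55 and 7.64 cpm and 50.1, 58.6 and 86.4 cpm (log2 fold change -3.25 ± 0.14).

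Tgm3, a transglutaminase known from the skin, was at 2.998, 3.39 and 5.496 cpm in the hippocampus and 53.4, 69.3 and 86.6 cpm in the cortex. Krt12, a keratin known from the cornea, ranged from 57.3 to 108 cpm in the cortex and from 3.33 to 7.33 cpm in the hippocampus. Ovol2, an epithelial transcription factor, had a log2 fold change of -3.71. Other leading cortical genes included Rasgef1c (-4.15), the metalloprotease Adam33 (-3.92), the potassium channel Kcnh4 (-3.71), the cholecystokinin receptor Cckbr (-3.34), Ccn4 (-3.33), the alpha-1B adrenergic receptor Adra1b (-3.29) and Cobl, an actin nucleator (-3.22).

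**Figure D2:**
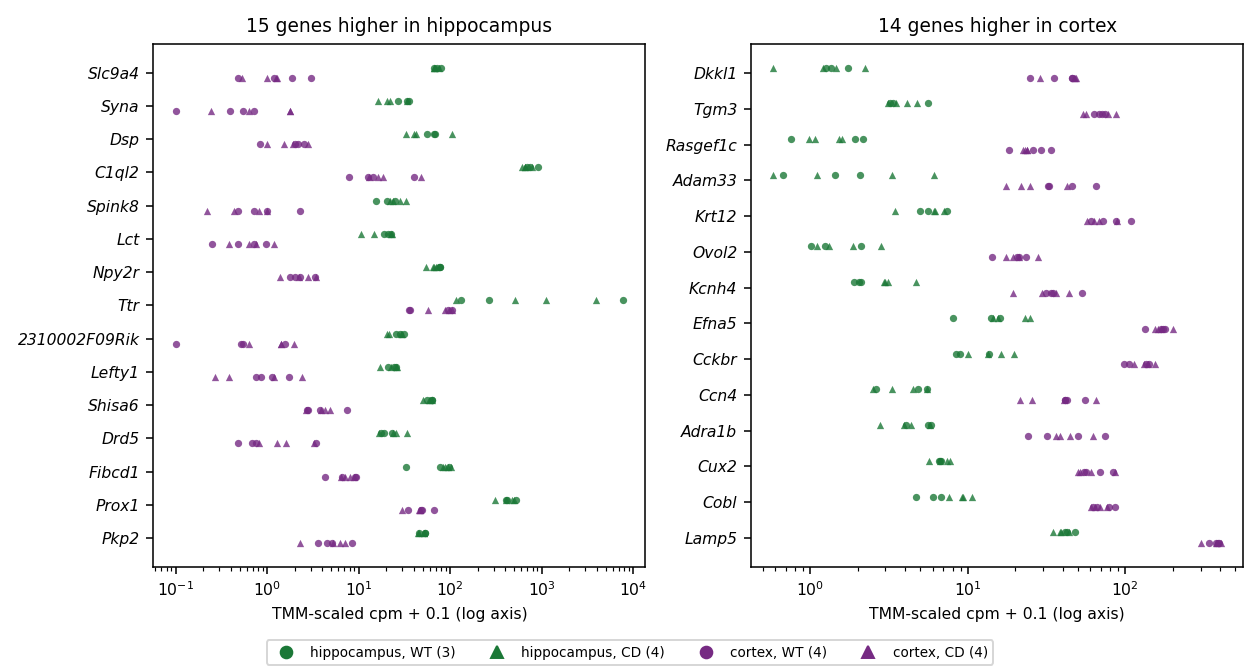
TMM-scaled cpm plus 0.1 (log axis) in each of the 15 libraries for the genes with the largest fold change in each direction, 15 toward the hippocampus and 14 toward the cortex; green is hippocampus, purple is cortex, circles are WT and triangles CD mice. The 7 green points lie on one side of the 8 purple points in each gene, as the choice of genes required, and Ttr has the widest spread within the hippocampus, from 115 to 7757 cpm.

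Start regions of the leading genes are shown to let the letters near the start be compared between the regions' genes. They are the windows from 250 bases before to 50 bases after the start in RefSeq (GRCm38.p6), for the 2 leading genes in each direction that have a usable entry. Each is written 5′ to 3′ on the gene's strand, with CAGATG, an E-box to which Neurod factors are known to bind, and TATAAA in capitals. Syna is at chr5:134560122-134560421 on the minus strand, Dsp at chr13:38151044-38151343 on the plus strand, Dkkl1 at chr7:45211834-45212133 on the minus strand and Tgm3 at chr2:130012090-130012389 on the plus strand.
Syna: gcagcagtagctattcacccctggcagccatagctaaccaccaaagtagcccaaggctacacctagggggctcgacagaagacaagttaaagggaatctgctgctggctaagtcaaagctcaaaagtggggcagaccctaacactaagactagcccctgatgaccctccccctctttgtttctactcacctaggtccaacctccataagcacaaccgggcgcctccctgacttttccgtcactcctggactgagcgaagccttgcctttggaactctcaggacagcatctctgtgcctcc
Dsp: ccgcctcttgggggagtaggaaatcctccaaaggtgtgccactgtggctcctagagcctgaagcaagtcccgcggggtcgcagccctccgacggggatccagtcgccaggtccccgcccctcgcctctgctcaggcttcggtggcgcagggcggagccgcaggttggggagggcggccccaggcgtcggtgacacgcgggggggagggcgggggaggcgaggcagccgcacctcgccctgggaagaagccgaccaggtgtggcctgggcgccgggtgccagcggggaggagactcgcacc
Dkkl1: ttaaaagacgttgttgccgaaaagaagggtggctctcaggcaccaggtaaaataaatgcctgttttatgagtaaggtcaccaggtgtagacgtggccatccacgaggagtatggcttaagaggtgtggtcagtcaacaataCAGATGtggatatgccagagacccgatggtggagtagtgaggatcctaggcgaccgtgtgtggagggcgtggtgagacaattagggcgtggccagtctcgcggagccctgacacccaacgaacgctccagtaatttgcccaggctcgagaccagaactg
Tgm3: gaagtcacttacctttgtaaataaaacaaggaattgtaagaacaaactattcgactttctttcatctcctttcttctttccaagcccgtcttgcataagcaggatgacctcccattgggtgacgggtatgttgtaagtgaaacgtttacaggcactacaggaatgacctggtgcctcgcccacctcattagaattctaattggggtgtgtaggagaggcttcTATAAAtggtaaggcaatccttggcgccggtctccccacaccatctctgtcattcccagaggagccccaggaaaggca
Neither motif was found in the windows of Syna and Dsp, searched on both strands. The Dkkl1 window held CAGATG 109 bases before the start, and the Tgm3 window held TATAAA 28 bases before it. Across windows, CAGATG was present in 16.7% of 419 windows of genes called higher in the hippocampus, 14.7% of 476 windows of genes called higher in the cortex, 11.3% of 10042 windows of tested genes not called, and 17.2% of all 32851 windows. TATAAA was present in 10.3%, 9.66%, 6.71% and 13.6% of the same windows. Genes of both directions had fewer CpG dinucleotides in their windows, with a median of 12 and 13, than the tested genes that were not called, with a median of 21; the matching GC contents were 57.7%, 60.0% and 61.3%. These shares describe letters and not binding.

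Subfield genes were higher in the hippocampus. Of 13 tested genes known to mark CA1 pyramidal neurons, 8 were called, each higher in the hippocampus (median log2 fold change 1.64, against 0.01 over all tested genes), where 8.31% of all genes were called in either direction. Besides Spink8, Lefty1 and Fibcd1, the largest difference was that of Ndst4, a heparan sulfate sulfotransferase, at 8.51, 15.7 and 21.3 cpm against 0, 0.562 and 1.67 cpm (log2 fold change 4.38 ± 0.27). Wfs1, often used as a CA1 marker, was at 22.1, 33.6 and 37.8 cpm and 18.1, 27.7 and 34.4 cpm and was not called (log2 fold change 0.28 ± 0.13). Of 7 tested CA2 genes, 6 were called higher in the hippocampus (median 1.51). Ntf3, encoding neurotrophin-3, led them at 7.02, 8.03 and 9.83 cpm against 0.383, 0.958 and 2.66 cpm. Amigo2, a cell adhesion protein, followed at 34.2, 43.1 and 47.95 cpm against 5.37, 7.42 and 11.7 cpm. Neither gene overlapped between regions, while Pcp4, which is also a layer 5 gene, did overlap and was not called (log2 fold change -0.28 ± 0.20).

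CA3 genes were called higher in the hippocampus in 5 of 10 cases (median 1.12), led by the postsynaptic adaptor Homer3 at 58.1, 74.8 and 102 cpm against 6.14, 9.71 and 14.7 cpm and by Tgfb2, a secreted growth factor, at 39.7, 45.8 and 57.8 cpm against 5.85, 6.31 and 10.4 cpm. Coch went the other way, at 1.21, 2.64 and 5.73 cpm in the hippocampus and 9.45, 18.02 and 21.98 cpm in the cortex, and was the only gene of the 4 subfield lists called higher in the cortex. Dentate granule cell genes were called higher in the hippocampus in 10 of 18 cases (median 1.78), among them C1ql2 and Prox1. Calb1, the calbindin of granule cells, was not called, at 163, 179 and 199 cpm and 167, 188 and 341 cpm, and nor was C1ql3 (log2 fold change 0.41 ± 0.14), a relative of C1ql2. Among 6 tested genes of immature neurons, Stmn1 was called higher in the cortex (log2 fold change -1.46) and Calb2 in the hippocampus (1.61), and Dcx, a marker of newborn neurons, was not called (-0.97 ± 0.18). The number of these 6 called higher in the cortex was 2 without the hippocampus of CD mouse m242 or the cortex of mouse m138, m164 or m190.

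Upper-layer genes (layers 2 to 4) were called higher in the cortex in 8 of 13 cases (median -1.45), including the Wnt enhancer Rspo1 at 0.546, 0.968 and 1.15 cpm in the hippocampus and 8.16, 17.8 and 21.7 cpm in the cortex, and Cux1 (log2 fold change -2.12). Mdga1, a synapse-regulating adhesion protein on the same list, was higher in the hippocampus, at 953, 1042 and 1379 cpm against 225, 276 and 311 cpm. Layer 5 genes split evenly, with 3 of 14 called in each direction (median 0.18): Deptor, Rbp4 and Tox were higher in the cortex (log2 fold changes -1.56, -1.29 and -1.26), while Crym, Bcl11b and Bcl6 were higher in the hippocampus (2.86, 1.74 and 1.08). Bcl11b is the zinc-finger factor of subcerebral neurons, and its levels were 169, 192 and 238 cpm in the hippocampus and 26.1, 61.6 and 89.6 cpm in the cortex. Layer 6 and subplate genes were called higher in the cortex in 4 of 11 cases and in the hippocampus in 2 (median -0.76), with Cplx3, Foxp2 and Tbr1 in the first group and Hs3st4 and Sema3e in the second.

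Cortex libraries differed among themselves in these genes. The layer 5 factor Fezf2 ranged from 64.0 to 209 cpm, Etv1 from 65.2 to 249.7 cpm and Pcp4 from 178 to 543 cpm in the cortex, and the cortices of WT mouse m244 and CD mouse m242 gave the lowest values of each gene. Rorb, a layer 4 factor, ranged from 27.8 to 87.4 cpm and was highest in those same cortices. Omission of any 1 library left the median of the layer 5 list between 0.062 and 0.29, and the number called stayed at 3 in each direction. Whether the piece of cortex taken had a part in these values was not tested.

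Transcription factors of pallial projection neurons divided as evenly, with 10 of 34 called in each direction (median 0.06). Zbtb20, a zinc-finger repressor that directs hippocampal development, was at 476, 520.2 and 816 cpm in the hippocampus and 78.3, 87.8 and 134 cpm in the cortex (log2 fold change 2.63 ± 0.13; edgeR FDR 1.98e-12). Lhx9, a LIM-homeodomain factor, was low but separate, at 2.66, 4.44 and 7.16 cpm against 0, 0 and 0.665 cpm. Lmo1 was higher by a log2 fold change of 2.44. On the cortical side, Mef2c, an activity-regulated factor, was at 103, 119.6 and 136 cpm in the hippocampus and 733, 798 and 949 cpm in the cortex (log2 fold change -2.76 ± 0.08; edgeR FDR 1.72e-15). Pou3f2 and Tbr1 followed at -2.01 and -1.57.

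Of 22 tested genes for AMPA, NMDA and kainate receptors, 5 were called higher in the hippocampus and 1 in the cortex (median 0.20). The AMPA receptor subunit Gria1 was at 344, 372 and 610.1 cpm in the hippocampus and 71.3, 112 and 142 cpm in the cortex (log2 fold change 1.93 ± 0.15; edgeR FDR 2.23e-09). Cnih2, a cornichon that slows AMPA receptor gating, was at 6195, 7059 and 7554 cpm against 1985, 2155 and 2585 cpm (log2 fold change 1.64 ± 0.07). With Shisa6 and the type II TARP Cacng5 (1.37) they were higher in the hippocampus, whereas the TARP Cacng3 was higher in the cortex at 99.7, 108 and 125 cpm and 265, 308 and 333 cpm (-1.46 ± 0.07). Another TARP, Cacng2, was at 154, 216 and 411 cpm in the hippocampus and 265, 365 and 617 cpm in the cortex. It passed the FDR threshold but not the fold threshold (-0.67 ± 0.19, edgeR FDR 0.00956), and was higher in the hippocampus in 0 of 7 mice. Gria2, Gria3, Grin1, Grin2a and Grin2b were not called, with log2 fold changes of 0.23, -0.24, -0.20, 0.73 and 0.17. The summed level of the list was 8801 to 10310.0 cpm in the hippocampus and 4437 to 5224 cpm in the cortex, and most of the hippocampal sum was Cnih2.

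In 14 gene families, grouped by symbol after the values were seen, at least 1 listed member was called in each direction. Homer3 was higher in the hippocampus (log2 fold change 3.00 ± 0.12) and Homer1, its partner in linking metabotropic glutamate receptors to calcium stores, was higher in the cortex (-1.21 ± 0.09), whereas Homer2 was not called (0.38 ± 0.08). Among GABA-A alpha subunits, Gabra5, which forms extrasynaptic receptors, was at 581, 669 and 707 cpm in the hippocampus and 53.3, 100.3 and 183 cpm in the cortex (2.51 ± 0.19), and Gabra3 was at 7.201, 13.4 and 15.99 cpm and 26.3, 32.5 and 39.2 cpm (-1.39 ± 0.12). The synaptic organizers Lrrtm1 and Lrrtm4 (1.06 and 1.06) were opposed to Lrrtm3 (-1.53), and the calcium-binding protein Necab2 (1.51) to Necab1 and Necab3 (-1.15 and -2.03). T-type calcium channels parted in the same manner, with Cacna1h higher in the hippocampus (1.43) and Cacna1g in the cortex (-1.34). Another T-type channel, Cacna1i, was at 49.9, 63.5 and 75.7 cpm in the hippocampus and 95.0, 129 and 149 cpm in the cortex. It passed the FDR threshold but not the fold threshold (-0.96 ± 0.10, edgeR FDR 2.77e-07).

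**Figure D3:**
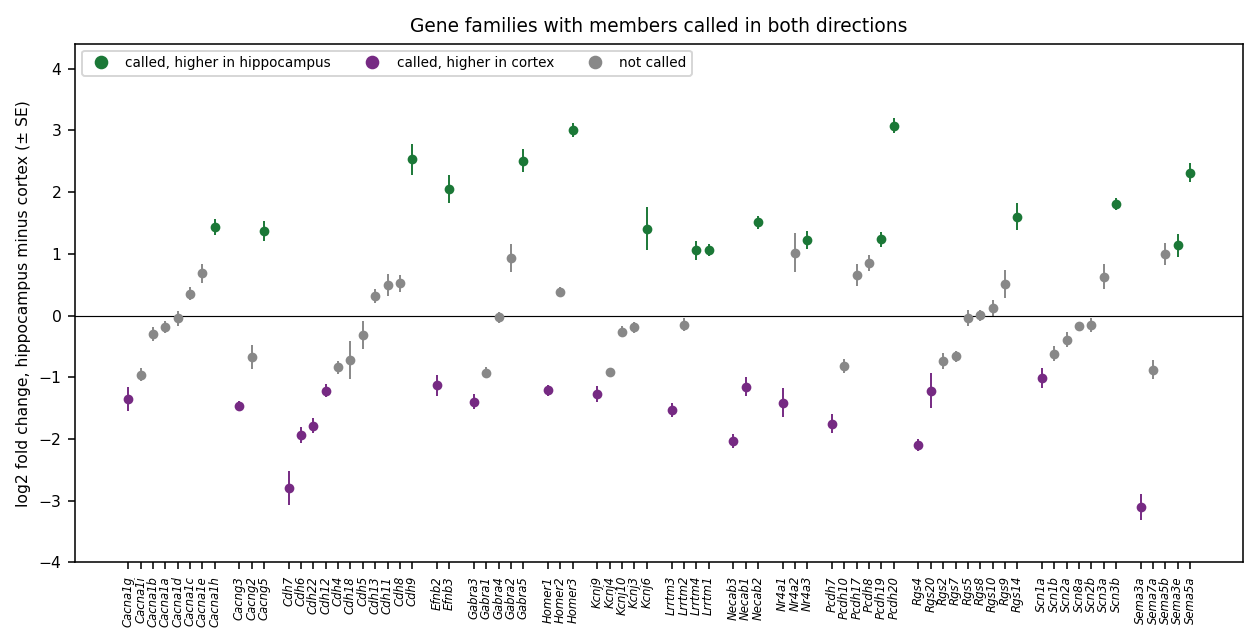
log2 fold change (hippocampus minus cortex, ± SE from edgeR) of the listed members of 14 gene families with at least 1 member called in each direction; green and purple points were called higher in the hippocampus and in the cortex, gray points were not called. Homer3, Pcdh20 and Cdh9 stand at 3.00, 3.08 and 2.53, and Sema3a and Cdh7 at -3.10 and -2.80, with family members on the other side of 0.

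Interneuron genes were called in both directions. Of 23 tested interneuron genes, 4 were called in each direction (median -0.27), and the GABA-synthesizing enzymes Gad1 and Gad2 were not called (log2 fold changes -0.35 and 0.07). Vip, the peptide of disinhibitory interneurons, was at 18.5, 27.8 and 32.5 cpm in the hippocampus and 119, 131 and 174 cpm in the cortex (log2 fold change -2.32 ± 0.12; edgeR FDR 4.59e-12). Tac2 and Pvalb were also higher in the cortex (-1.92 and -1.13), while Calb2, Nos1, Sncg and Ndnf were higher in the hippocampus (1.61, 1.56, 1.19 and 1.01). Ndnf lay at the threshold, with a log2 fold change of 0.918 to 0.997 without any of 7 libraries in turn and 0.93 with the mouse as a block. Sst, at 3544, 4971 and 5511 cpm and 3725, 4408 and 5938 cpm, did not separate the regions (0.04 ± 0.10). Of 13 GABA receptor genes, Gabra5 was the one called higher in the hippocampus, and Gabrd (-2.01) and Gabra3 were called higher in the cortex. Among 33 tested neuropeptides and secreted ligands, 4 were called higher in the hippocampus and 7 in the cortex, the latter led by Igfbp6 (-2.96), the cerebellin Cbln2 (-2.90), Vip and Bmp3 (-2.27).

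Of 19 tested receptors for monoamines, acetylcholine and related transmitters, 4 were called in each direction (median 0.01). Serotonin receptors Htr1a, Htr2c and Htr5b and the dopamine receptor Drd5 were higher in the hippocampus, with log2 fold changes of 1.58, 1.49, 2.61 and 3.89. Adrenergic receptors Adra1a, Adra1b and Adrb1 and the nicotinic subunit Chrna4 were higher in the cortex (-1.35, -3.29, -1.50 and -1.04). Adrb1 was at 43.2, 53.1 and 58.97 cpm in the hippocampus and 122, 152 and 172 cpm in the cortex, without overlap. Htr2c overlapped, at 3.63, 10.8 and 14.1 cpm and 1.53, 1.88 and 9.34 cpm, was higher in the hippocampus in 6 of 7 mice, and was not past the FDR threshold with the mouse as a block (edgeR FDR 0.0136). Chrna4 was near the fold threshold and fell short of it without any of 3 libraries in turn (-0.99 to -0.96). Adra2a, Adra1d and the serotonin receptor Htr7 were not called (0.02, 0.27 and -0.57).

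Potassium channels were higher in the cortex in 7 of 39 cases and in the hippocampus in 1, Kcnj6 (median -0.31); Kcnv1, a silent subunit, was at 20.8, 22.99 and 27.9 cpm and 73.6, 88.9 and 99.9 cpm (log2 fold change -1.91 ± 0.08). Of 21 sodium and calcium channel genes, Scn3b (1.80) and Cacna1h were higher in the hippocampus and Cacna1g, Cacnb4 and Scn1a in the cortex. Kcnj6 missed the FDR threshold without the hippocampus of WT mouse m244 (log2 fold change 1.28), and Scn1a missed the fold threshold without any of 6 libraries in turn (-0.99 to -0.92). Calcium-binding and calcium-signaling genes were called higher in the cortex in 9 of 31 cases and in the hippocampus in 4 (Hpca, Necab2, Calb2 and Ryr3). Camk2n1, an endogenous inhibitor of CaM kinase II, was the largest of these by level, at 2079, 2923 and 3326 cpm in the hippocampus and 9779, 11838 and 15834 cpm in the cortex (log2 fold change -2.11 ± 0.13; edgeR FDR 4.72e-11). Its relative Camk2n2 was also higher in the cortex (-1.26 ± 0.14), but the kinase subunits Camk2a and Camk2b were not called (0.20 ± 0.16 and 0.80 ± 0.08). Ryr3, a ryanodine receptor of calcium stores, was at 27.8, 30.2 and 41.9 cpm against 2.63, 6.51 and 13.4 cpm (2.24 ± 0.21).

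Vesicle release and zinc genes were called in 6 of 19 cases, all toward the cortex (median -0.59). Rims3, an active zone protein, was at 5.07, 7.77 and 12.5 cpm in the hippocampus and 51.7, 61.8 and 83.2 cpm in the cortex (log2 fold change -2.86 ± 0.17; edgeR FDR 2.72e-11). Stx1a, the syntaxin of synaptic vesicle fusion, was at 259, 289 and 351 cpm against 1134, 1196 and 1508 cpm (-2.08 ± 0.09), and Syt2 and Cplx3 followed (-1.80 and -2.07). Slc17a7, the vesicular glutamate transporter shared by both regions, was not called (-0.00 ± 0.10). Rgs4, which ends G protein signaling, led 4 cortical genes of 36 in the kinase and RGS list, at 357, 445 and 497 cpm and 1517, 1769 and 2142 cpm (-2.09 ± 0.10), beside Plcb4 (-2.02), while Prkcd and Rgs14 were higher in the hippocampus (1.86 and 1.60).

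The most abundant called genes belonged to these groups in part. Ncdn, encoding neurochondrin, a neurite protein, was at 20479.5, 20773 and 25644 cpm in the hippocampus and 8956, 11171 and 13122 cpm in the cortex (log2 fold change 1.05 ± 0.09), and without the hippocampi of mice m190 and m244 it was just below the 2-fold threshold (0.98). Cpne6, a calcium-dependent membrane-binding copine, was at 2259, 2496 and 2876 cpm against 620.0, 719 and 804 cpm (1.83 ± 0.07; edgeR FDR 1.97e-13). Hpca, the calcium sensor hippocalcin, was at 1347, 1608 and 2136 cpm against 483, 639 and 825 cpm (1.34 ± 0.11). None of the 3 overlapped between regions, though the annotated spans of Ncdn and Hpca, and also those of Cnih2, Prkar1b and Camk2n2, each overlap a gene on the opposite strand. On the cortical side, Prkar1b, a regulatory subunit of kinase A, was at 1344, 1571 and 1812 cpm and 2825, 3259 and 4036 cpm (-1.06 ± 0.08), and Ptgds, a prostaglandin synthase known from meninges, choroid plexus and oligodendrocytes, at 1345, 2339.8 and 3349 cpm and 4098, 6797 and 9035 cpm (-1.48 ± 0.20).

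Adhesion and guidance genes were called in both directions, in 45.7% and 53.6% of those tested against 8.31% of all genes. Such shares were not particular to them, since calcium genes (41.9%) and interneuron genes (34.8%) were also above that of all genes. Of 35 tested cadherin and adhesion genes, 7 were higher in the hippocampus and 9 in the cortex (median -0.17). Pcdh20, a protocadherin, was at 101, 114 and 128 cpm in the hippocampus and 7.54, 13.9 and 18.2 cpm in the cortex (log2 fold change 3.08 ± 0.13; edgeR FDR 2.92e-13), and Cdh9, a cadherin of mossy fiber synapses, at 4.28, 4.66 and 5.32 cpm against 0.359, 0.802 and 1.76 cpm (2.53 ± 0.25). Cdh7, Cdh6 and Cdh22 were higher in the cortex (-2.80, -1.93 and -1.79), as was Pcdh7 (-1.75). Of 28 axon guidance genes, 10 were higher in the hippocampus and 5 in the cortex (median 0.75). While the ligand Efna5 was higher in the cortex, its receptor class was not: Epha7 was at 93.3, 141 and 161.7 cpm in the hippocampus and 22.8, 28.6 and 32.5 cpm in the cortex (2.26 ± 0.11), Epha5 and Epha6 were also higher in the hippocampus (1.44 and 1.94), and Epha4 was not called (0.60). Semaphorins divided likewise, with Sema5a and Sema3e toward the hippocampus (2.31 and 1.14) and Sema3a, at 1.999, 3.498 and 6.05 cpm and 23.3, 28.9 and 40.7 cpm, toward the cortex (-3.10 ± 0.21). The neuropilins Nrp1 and Nrp2, receptors of class 3 semaphorins, were higher in the hippocampus (1.86 and 2.01), as was the repellent Slit1 (2.41), but not its receptors Robo1 and Robo2, which were not called (0.89 and -0.37).

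Immediate early genes, which neurons transcribe within minutes of activity, were higher in the cortex in 12 of 24 cases and in the hippocampus in 2 (median -1.03). Egr1 was at 20.9, 27.5 and 35.3 cpm in the hippocampus and 87.8, 115 and 161 cpm in the cortex (log2 fold change -2.11 ± 0.14; edgeR FDR 2.28e-10), and Fos at 2.52, 3.33 and 4.36 cpm and 8.798, 12.1 and 18.6 cpm (-2.02 ± 0.16). Arc, the synaptic plasticity gene, was at 67.3, 79.4 and 109.9 cpm and 154, 284 and 473 cpm (-1.79 ± 0.17), and none of the 3 overlapped between regions. The summed level of the list was 573 to 689 cpm in the hippocampus and 853 to 1485 cpm in the cortex. Jun and Nr4a3 went the other way, with Jun at 85.5, 97.6 and 151 cpm against 20.1, 31.1 and 45.9 cpm (1.66 ± 0.16) and Nr4a3 at 46.5, 57.96 and 60.4 cpm against 13.8, 22.3 and 39.2 cpm (1.22 ± 0.15). Bdnf and Junb were not called (0.05 and -0.63). How the animals were handled before dissection is not stated for these libraries.

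Some hormone and morphogen genes also differed between the regions. Nr3c2, the mineralocorticoid receptor, was at 3.56, 4.83 and 6.96 cpm in the hippocampus and 0, 1.07 and 1.92 cpm in the cortex (log2 fold change 2.36 ± 0.31; edgeR FDR 3.57e-06), while Nr3c1, the glucocorticoid receptor, was not called (-0.70 ± 0.12). Hsd11b1, which regenerates active glucocorticoid, was also higher in the hippocampus (1.18), and Cdkn1a, a cell cycle inhibitor, was higher in the cortex (-1.73); the other 10 of 13 glucocorticoid and stress genes were not called. Among 28 retinoid, thyroid and growth factor genes, 4 were higher in the hippocampus and 5 in the cortex. Cyp26b1, which degrades retinoic acid, was at 16.1, 21.9 and 26.8 cpm against 1.98, 4.45 and 9.91 cpm (2.25 ± 0.24), and the thyroid hormone binding protein Crym at 109, 189.7 and 229.5 cpm against 8.44, 24.2 and 46.1 cpm (2.86 ± 0.26). Dio3, which inactivates thyroid hormone, was higher in the hippocampus at low levels, 0.818, 1.45 and 7.09 cpm against 0, 0.184 and 0.478 cpm (3.60 ± 0.52). Nrg1 and Sfrp1 were higher in the cortex (-1.68 and -1.24).

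Myelin genes were higher in the hippocampus. Of 23 tested oligodendrocyte and myelin genes, 17 were called, each higher there (median 1.21), and 19 had an FDR below 0.01 at any fold. The summed level was 5024 to 7779 cpm against 2239 to 4077 cpm, without overlap. Mbp, encoding myelin basic protein, was at 1253, 1754 and 2251 cpm in the hippocampus and 361, 553 and 940.3 cpm in the cortex (log2 fold change 1.50 ± 0.16). Precursor genes Pdgfra and Cspg4 were not called (0.15 ± 0.15 and 0.12 ± 0.21), and Olig1 and Olig2, shared by precursors and mature cells, were not called either (0.66 and 0.71). How much of this difference lies in adjoining white matter was not tested. Of 24 astrocyte genes, 3 were called (12.5%, near the 8.31% called over all genes), each higher in the hippocampus. These were Thbs4 (2.45), Gfap, at 506, 582 and 792 cpm against 95.4, 166 and 219 cpm (1.90 ± 0.13), and Agt (1.65). The summed astrocyte level overlapped, at 6241 to 7122 cpm and 6129 to 6939 cpm. Microglia and endothelial genes were called in 0 of 13 and 0 of 13 cases by edgeR, with 3 and 3 at an unadjusted p under 0.05 and 0 and 0 called by DESeq2. With 8.31% of all genes called, few calls would be met in lists of this size. Their list medians were 0.16 and -0.12, and the largest log2 fold change was 0.41 in size.

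Choroid plexus genes varied most from one mouse to the next. Of 15 listed genes, 10 reached the minimum level for testing, and all 10 were called higher in the hippocampus (median 4.13). Slc4a5 and Kcne2 were at most 2.16 and 1.25 cpm in the cortex. They could pass the filter of 5 cpm only through hippocampus libraries, so their direction was set by the filter. A random effect of mouse in limma-voom left 4 of the 10 called (median 3.28). Slc4a5 and Kcne2 were among those it did not call (limma-voom FDR 0.0374 and 0.0431). With the mouse as a fixed block in edgeR all 10 were called. Without the hippocampi of mice m190 and m244, 4 genes remained above the minimum level, and those 4 were called. Ttr, encoding the transthyretin of cerebrospinal fluid, was at 115, 517 and 7757 cpm in the hippocampus and 35.4, 90.98 and 106 cpm in the cortex, a log2 fold change of 4.65 ± 0.77 (edgeR FDR 6.44e-05). The hippocampi of WT mouse m244 and CD mouse m190 were the high ones, at 7757 and 3973 cpm. Those of CD mouse m118 and WT mouse m162 were the lowest, at 115 and 132 cpm, against 88.0 and 36.2 cpm in the cortex of the same mice. The log2 fold change of Ttr fell to 3.11 with the mouse as a block, to 3.20 without the hippocampus of mouse m244, and to 2.29 without the hippocampi of both mice, and it remained past the thresholds each time. The summed choroid plexus level ran from 152 to 8192 cpm in the hippocampus and from 40.7 to 117 cpm in the cortex; its defining genes Folr1 and Kl were at 0 in some cortex libraries and reached 38.8 and 10.8 cpm in the hippocampus. Of 10 ependymal genes, 4 reached the minimum level for testing, and those 4 were called higher in the hippocampus (median 2.79). Tmem212 was at 1.85, 3.000 and 6.44 cpm against 0, 0 and 0.478 cpm. At such cortex levels it could pass the filter of 5 cpm only through hippocampus libraries, so its direction was set by the filter. Without the hippocampi of mice m190 and m244, 830 genes were called, 784 of them shared with the 871, and the counts for CA1, CA2, CA3, dentate and myelin genes were as before at 8, 6, 5, 10 and 17.

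Among genes of neighboring tissue, 25.0% of meningeal, 30.0% of striatal and 54.55% of thalamic genes were called, against 8.31% of all genes. Of 12 meningeal and fibroblast genes, Fmod and Slc22a6 were higher in the cortex (log2 fold changes -2.10 and -2.06) and Dcn in the hippocampus (1.18), the last not past the FDR threshold with the mouse as a block (edgeR FDR 0.0101). The number called higher in the cortex was 4 without the hippocampus of WT mouse m244 and 6 without the hippocampi of mice m190 and m244 (median -1.03, against -0.65 with all libraries). Striatal genes were called in 3 of 10 cases, among them Six3 and Syndig1l, higher in the hippocampus (4.03 and 1.91). Six3, a homeodomain factor of ventral forebrain, was spread from 0.574 to 33.4 cpm over the hippocampi, which overlapped the cortex range of 0 to 2.16 cpm, and it was not past the FDR threshold in limma-voom with a random effect of mouse (log2 fold change 3.60, FDR 0.0154). Genes of thalamus and habenula were called in 6 of 11 cases, with Tac2, Ramp3, Rora and Slc17a6 higher in the cortex and Prkcd and Calb2 in the hippocampus. Tcf7l2, which defines thalamic neurons, was not called (0.39 ± 0.17). Blood genes were called in 0 of 5 cases by edgeR and in 0 by DESeq2, with 0 at an unadjusted p under 0.05.

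**Figure D4:**
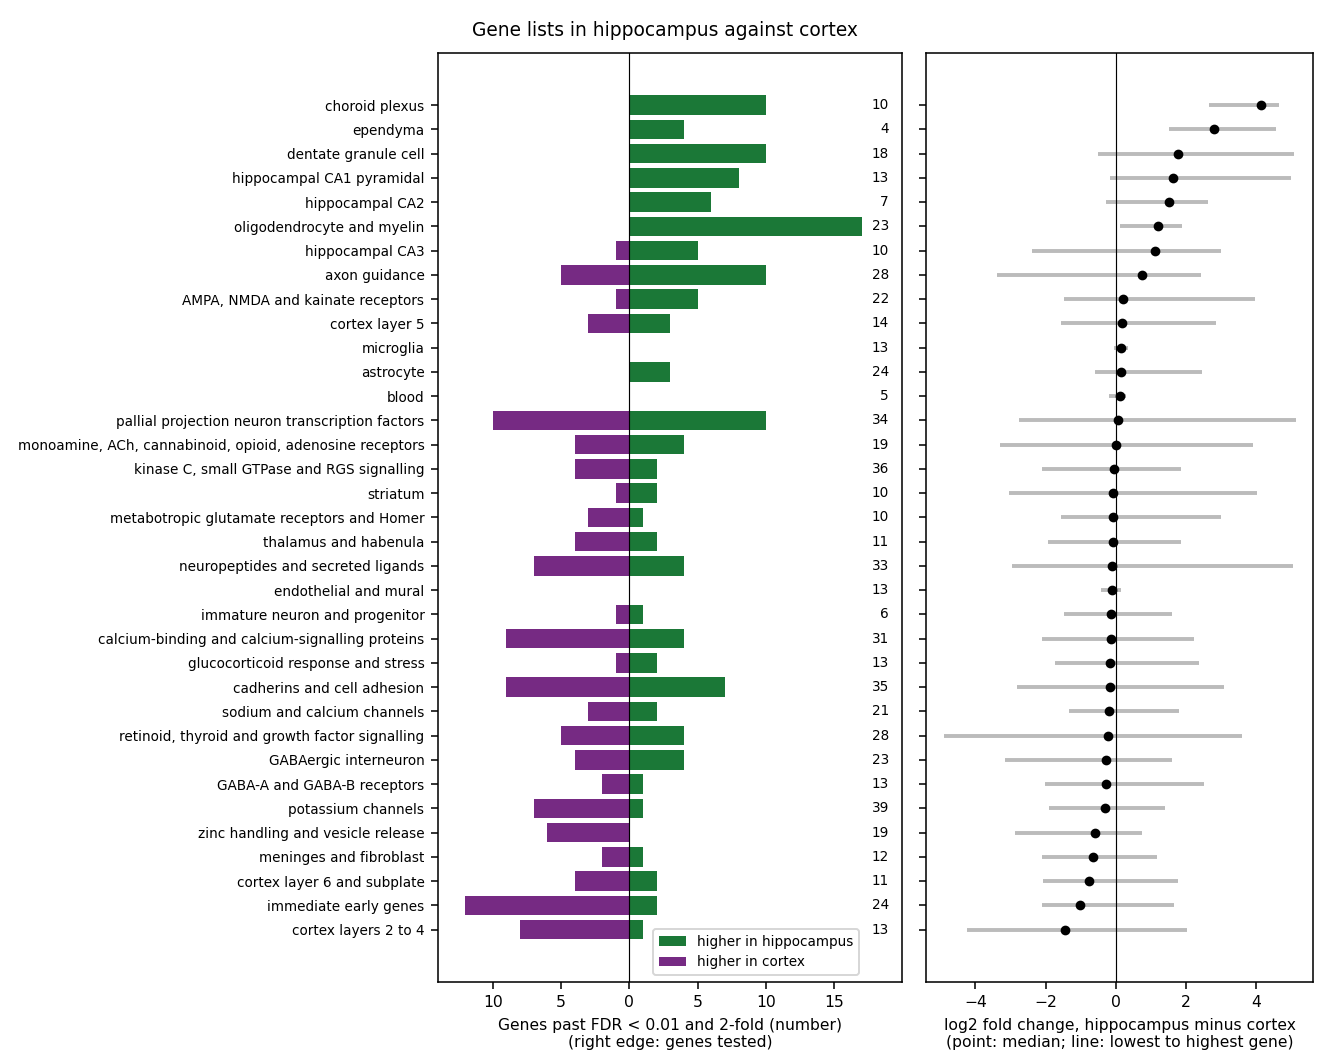
Number of genes called in each direction (left, bars to the right for hippocampus and to the left for cortex, with the number tested at the edge) and log2 fold change (right, point for the median and line from the lowest to the highest gene) for 35 gene lists. Choroid plexus, ependyma, the dentate and CA lists and myelin genes stand at the hippocampal end, and upper-layer genes, with 8 of 13 called higher in the cortex, and immediate early genes, with 12 of 24, at the cortical end.

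**Figure D5:**
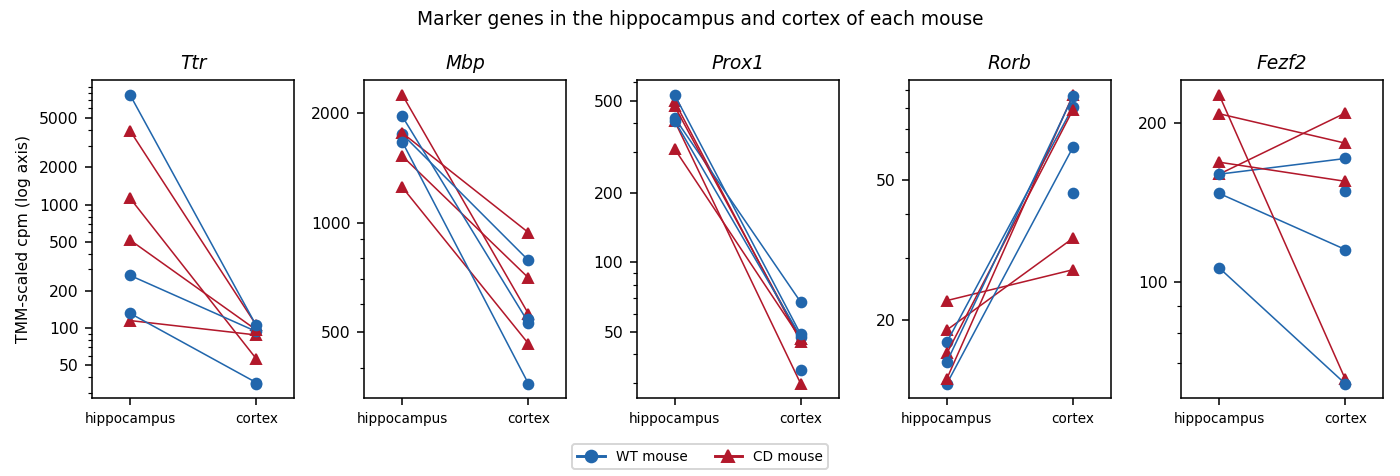
TMM-scaled cpm (log axes, each with its own range) of 5 marker genes in the hippocampus and cortex of each mouse; lines join the regions of one mouse, blue circles are WT and red triangles CD mice, and 1 WT mouse has cortex alone. Prox1 and Mbp fall and Rorb rises from hippocampus to cortex in each of the 7 pairs, Ttr spreads from 115 to 7757 cpm in the hippocampus, and Fezf2 is lowest in the cortices of 2 mice at 64.0 and 65.3 cpm.

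The difference between regions was tested for dependence on genotype. No gene of 10487 had an FDR below 0.05 for the interaction of region and genotype in edgeR (0%; smallest FDR 0.776), and 324 genes had an unadjusted p under 0.05 where 524 would be met by uniform p-values; DESeq2 also gave 0 genes. When each genotype was fitted alone, 783 of the called genes were tested in both. Of these, 670 passed both thresholds in WT mice, 657 in CD mice and 573 in each genotype. The sign was the same in 783 of 783. These genes were chosen from the fit of both genotypes together, so that agreement was largely set by the choice. Tulp4 itself, which carries the edited site and lies at chr17:6106253-6240637, was at 3.66, 6.198 and 9.33 cpm in the hippocampus and 4.66, 7.34 and 15.6 cpm in the cortex and was not called (log2 fold change -0.33 ± 0.18; edgeR FDR 0.182). Its counts come from the 3′ end of the gene and do not measure the circular RNA.

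Genes were also ranked by how far their levels in both regions of a mouse moved together. Covariance of the deviations of the paired regions over the 7 mice was greatest for Ttr, followed by Irs2, Slx1b, Hbb-bt, Malat1, Wdfy1, Gabra2 and Afg1l, among genes at 20 cpm or more. This ranking favors genes that vary widely, and it was not set against chance. A single mouse can weigh heavily in it, as Afg1l was highest in both regions of WT mouse m240, at 87.7 and 40.0 cpm. Apart from Ttr, none of these was called between regions. Hbb-bt, a beta-globin gene that shares reads with its near copy Hbb-bs, was at 165, 262 and 549 cpm in the hippocampus and 155, 279.6 and 809 cpm in the cortex. Irs2, an adaptor of the insulin receptor, was at 11.3, 23.98 and 38.96 cpm and 12.3, 19.8 and 47.9 cpm. Gabra2 was higher in the hippocampus in 7 of 7 mice, at 80.5, 184 and 214 cpm and 37.6, 87.6 and 132 cpm, but its fold change was below 2 (log2 fold change 0.93 ± 0.23; edgeR FDR 0.00297). It passed both thresholds without the hippocampus of CD mouse m190 or the cortex of mouse m138, m242 or m244 (1.02 to 1.06), in WT mice alone (1.08) and without the hippocampi of mice m190 and m244 (1.005). Malat1, a nuclear noncoding RNA, passed both without the hippocampus of WT mouse m240 (1.06; edgeR FDR 0.00746). Overlap between the regions was wide for the others as well.

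Called genes were also set against the cerebellum of the same study, as a description, with all 22 libraries scaled together. Of the 423 genes called higher in the hippocampus, 220 (52.0%) had a cerebellar median below both regions, 32.6% lay between them and 65 lay above both. The corresponding numbers for the 448 genes called higher in the cortex were 205 (45.8%), 160 and 83. The same shares were not taken over all tested genes, so whether they are particular to called genes was not tested. Homer3 was among the genes above both, with a cerebellar median of 512 cpm, as was Syt2 at 1371 cpm, whereas Lamp5 and Cckbr were below both at 5.34 and 2.296 cpm.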

How the data were processed

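Poly(A) RNA of dissected hippocampus and cortex was measured by CelSeq2, a 3′-end RNA-seq method. The authors used STAR for alignment (mm10) and the End Sequence Analysis Toolkit for quantification, and deposited raw counts per RefSeq transcript without normalization. Tool versions, collapsing of reads by molecular identifier and the use of strand in counting are not given in the sources used here, so reads of overlapping genes cannot be told apart. Of 85964 transcripts, 69280 were matched by accession to 23033 genes (81.4% of counts), and 16684 unmatched transcripts were left out. Of each gene, the transcript with most counts in the 22 libraries was taken. Groups and mouse numbers were taken from the sample titles.

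Genes that reached 5 cpm in 2 or more of the 15 libraries were kept, scaled by TMM and fitted with genotype and region as terms in edgeR 4.0.16 (quasi-likelihood test, R 4.3.3). Genes were called when their FDR, by Benjamini-Hochberg adjustment, was below 0.01 and their fold change above 2 or below 0.5. For the interaction of region and genotype the FDR threshold was 0.05. log2 fold changes are hippocampus minus cortex, ± SE. The biological coefficient of variation was 15.8%. DESeq2 1.42.0, limma 3.58.1 (voom), other scalings and filters, summed transcripts, single genotypes and the omission of each library were alternatives. The filter scope is not stated by the study, which also gives fewer mice per group than were deposited; all were used. In counts simulated for the region comparison over 10202 genes, 98 of 98 genes changed 3-fold and 98 of 99 changed 4-fold were recovered, and 2 unchanged genes were called. The simulated libraries were independent, with no effect of mouse. Changes closer to the fold threshold were not simulated, so recovery there is not known.

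Libraries with the same mouse number come from the same animal, by the labels. Deviations of a mouse's regions from their group means correlated at 0.0082 to 0.20 (mean 0.094, against -0.015 between different mice), so the mouse was also fitted as a block. Pairs of libraries within a group differed by 6.20 to 19.1 times the sampling noise (chi-square per degree of freedom), so no library was taken as a repeat. Depth limits genes near 5 cpm, where counting error is largest.

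Genes were named by rule: the 15 with the largest fold change in each direction among called, non-overlapping genes with a median of at least 20 cpm in the higher region, up to 4 called genes per direction of each of 35 lists with other members as not called, the 6 most abundant called genes per direction, the 8 that covaried most over mice, and Tulp4. Members of split families and noncoding RNAs were named after their values were seen. Some genes that met this rule are not reported here. The groups and lists were chosen with earlier results of these data known.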

Additional observations from a re-analysis of the deposited data

Results flagged for a closer look

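In 14 of 126 groups of 4 libraries of named genes, 1 library lay far from the other 3 by Dixon's 95% criterion, where chance gives about 6.3. Chance marks about 1 in 20 such groups. All values are TMM-scaled cpm, and no cause was tested.

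In the CD hippocampus, Dsp was 106 in mouse m190 and 32.7 to 42.6 in the others, Ncdn was 25559.0 in mouse m190 and 20479.5 to 20773.2 in the others, and Camk2n1 was 2627.1 in mouse m190 and 3217.6 to 3326.3 in the others. That hippocampus also had the second highest level of choroid plexus genes. Slc9a4 was 75.8 in mouse m242 and 66.1 to 67.5 in the others, Prkar1b was 1811.8 in mouse m242 and 1559.6 to 1599.1 in the others, and Kcnh4 was 4.6 in mouse m118 and 2.85 to 3 in the others.

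In the CD cortex, C1ql2 was 48.1 in mouse m118 and 13 to 18.5 in the others. Prox1 was 29.8 in mouse m138 and 45.3 to 46.6 in the others, and Cnih2 was 2585.3 in mouse m138 and 2115.5 to 2177.1 in the others. Dkkl1 was 28.7 in mouse m242 and 46.8 to 48.3 in the others, and Stx1a was 1508.0 in mouse m242 and 1134.3 to 1157.4 in the others. In the WT cortex, Drd5 was 3.33 in mouse m240 and 0.383 to 0.66 in the others, Kcnh4 was 53.3 in mouse m244 and 31.2 to 34.6 in the others, and Ccn4 was 55.6 in mouse m244 and 41.3 to 42.5 in the others.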

How the results depend on the processing

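No called gene was called in the opposite direction under any alternative. Called genes numbered 871 with the mouse as a fixed replicate block (842 shared with the first count) and 880 with it as a random one, 884 with all 22 libraries, 873 without genotype, 888 with DESeq2, 868 with library totals (457 toward the hippocampus) and 868 with the upper quartile, 781 in WT and 719 in CD mice alone, and 749 with transcripts summed. They numbered 1428 without a filter (748 and 680 per direction) and 381 at 20 cpm in at least 7 libraries (173 and 208), since those filters change the genes tested. Leaving out each library gave 854 to 886, with 725 genes called in all 15 fits. Of the genes named by rule, the fixed block changed the calls of Htr2c, Dcn and Ndnf and the random block those of Slc4a5, Kcne2 and Six3, and neither changed another. Interaction calls numbered 2 without a filter (Gm36251 and Gm40250) and 0 to 1 with a library left out, the 1 being Pkmyt1 without the hippocampus of WT mouse m240.

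List medians moved with the genes that entered. At 20 cpm they were 0.44 for dentate, 0.47 for immature neuron, 0.17 for layer 6, -0.16 for transcription factor, -0.16 for GABA receptor, -0.25 for calcium, -1.19 for immediate early, -0.059 for astrocyte, -0.46 for striatal, -0.76 for thalamic and 0.090 for vesicle genes. With transcripts summed they were 2.31 for dentate, 0.14 for layer 6, -0.038 for transcription factor, 0.29 for glutamate receptor and 0.049 for astrocyte genes. In CD mice they were -0.098 for transcription factors, -0.32 for neuropeptides, 0.14 for glutamate receptors, 1.72 for ependyma and -0.26 for blood. In WT mice they were 0.13 for glutamate receptors, -1.21 for immediate early genes, 0.44 for blood and -0.12 for retinoid and growth factor genes. Library totals gave 0.26 for glutamate receptors. Leaving out each library gave 0.15 to 0.26 for them and -0.080 to 0.37 for blood, highest without the cortex of CD mouse m118. Without the hippocampi of mice m190 and m244, an alternative chosen after seeing the data, they were -0.40 for potassium channels and 2.59 for choroid plexus. The cause was not tested.

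Genes not called that changed sign were Afg1l (-0.0047 in CD mice, -0.14 to 0.51 with a library left out), Hbb-bt (0.12 in WT mice, -0.37 to 0.0997 with a library left out), Irs2 (0.092 in CD mice, -0.23 to 0.11 with a library left out) and Wdfy1 (-0.10 in CD mice, -0.038 to 0.21 with a library left out).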

Other observations

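Long noncoding RNAs were named here after their values were seen. The largest fold changes toward the cortex among them were those of Gm12992, at chr4:131899478-131920029 (GRCm38), with a hippocampal maximum of 0.285 and 4.31 to 12.7 in the cortex (log2 fold change -6.04), and of A830009L08Rik, at chr13:91368990-91388085, with a hippocampal maximum of 0.726 and 5.58 to 12.2 in the cortex (-4.96). Toward the hippocampus, after 2310002F09Rik, Gm34466, at chr13:45246632-45267772, was at 3.11 to 9.98 against 0 to 1.10 (4.36), and Gm11681, at chr11:112792731-112799008, was at 10.5 to 14.5 against 0.208 to 1.78 (3.37). The functions of these RNAs are not known from the sources used here.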
